A study of Homo sapiens with 9 samples.

Results

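CTCF-alone sites are the CTCF peaks of wild-type HEC-1-B cells at which neither RAD21 nor ZNF143 had a peak. HEC-1-B is a human uterine adenocarcinoma cell line. A wild-type CTCF peak on chromosomes 1 to 22 or X was counted as CTCF-alone when it overlapped no wild-type RAD21 peak and no wild-type ZNF143 peak by 1 bp or more. The rule was met by 11764 of 52982 CTCF peaks, or 22.2% (exact 95% binomial interval 21.9 to 22.6). The other CTCF peaks comprised 14403 with RAD21 and no ZNF143, 743 with ZNF143 and no RAD21, and 26072 with both.

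CTCF is a zinc-finger protein that binds a directional DNA motif and marks the boundaries of many chromatin loops. Cohesin, the ring complex of which RAD21 is a subunit, extrudes loops of DNA and is halted at CTCF in a way that depends on the motif's direction. ZNF143 is a zinc-finger transcription factor best known at promoters, and its peaks often coincide with those of CTCF.

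Binding was mapped by ChIP-nexus, a chromatin immunoprecipitation assay with an exonuclease step that narrows the recovered DNA to the footprint of the protein. The groups were wild-type cells (CTCF, RAD21 and ZNF143 libraries), ZNF143KO cells (CTCF and RAD21 libraries) and CTCF-AID cells at 0 h and at 24 h of auxin (IAA, a CTCF and a ZNF143 library at each time). In CTCF-AID cells CTCF carries an auxin-inducible degron, and the protocol in the labels degrades tagged proteins in cells that express TiR1 with 500 μM IAA. All groups are HEC-1-B cells or lines derived from them, and whether a derived line is 1 clone is not given in the sources used here. The absence of ZNF143 in the knockout and the loss of CTCF after auxin were taken from the labels. Each group had 1 library, so the intervals below cover counting error over peaks only, and no difference between groups has a replicate check.

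Total read depth is unknown, but relative depth could be solved from the deposited values. In reads per kb of background, the wild-type libraries had 8.63 (CTCF) and 7.81 (RAD21), against 18.9 (CTCF) and 26.1 (RAD21) for ZNF143KO. In the CTCF-AID lines it was 12.7 for CTCF at 0 h and 3.88 at 24 h. The ZNF143 libraries had 5.96 in wild type, 13.55 at 0 h and 12.1 at 24 h. The wild-type ZNF143 library used by the rule was thus the shallowest for that antibody. Genotype and depth cannot be told apart in the comparisons of wild type with knockout, nor line and depth in those of wild type with CTCF-AID. The same holds for auxin and depth in the comparison of CTCF at 0 h and 24 h.

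The sites were chosen by the presence or absence of RAD21 and ZNF143 peaks in wild type, so the lack of those peaks there is not a result. At the edge of the rule, 14 CTCF-alone sites touched a RAD21 or ZNF143 peak without overlapping it, and 9 of the other CTCF peaks overlapped one by a single base. Just inside the rule, the site at chr7:101083668-101083763 (hg19) had a CTCF signal of 16.4 and the one at chr9:123373465-123373524 a signal of 7.79, each directly beside a RAD21 peak. Just outside it, the peaks at chr1:225998063-225998109 and chr15:79200119-79200184 had signals of 10.1 and 9.49 and shared 1 bp with a RAD21 peak. Such borderline sites were few, since the median CTCF-alone site lay 13680 bp from the nearest RAD21 peak (quartiles 4549 and 32425 bp) and 19086 bp from the nearest ZNF143 peak (5885 and 49592 bp). Within 500 bp, 6.48% of the sites had a RAD21 peak and 5.76% a ZNF143 peak.

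CTCF-alone sites were weakly occupied. Signal here is the authors' fold enrichment of reads at the peak's summit over the local background, compared only within a list. The median signal was 7.87 (quartiles 6.49 and 9.68) at CTCF-alone sites, 10.8 (8.11 and 14.05) at CTCF peaks with RAD21 but no ZNF143, and 20.9 (17.2 and 24.1) at CTCF peaks with both. The solved number of reads covering the summit had a median of 10 at CTCF-alone sites (quartiles 8 and 13), 14 at sites with RAD21 only and 32 at sites with both. A summit of 10 reads or fewer was found at 59.1% of the CTCF-alone sites. The deposited −log10 q had a median of 9.35 at the sites and lay under 5 at 723 of them (6.15%), where the list's lowest value was 3.004.

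**Figure D1:**
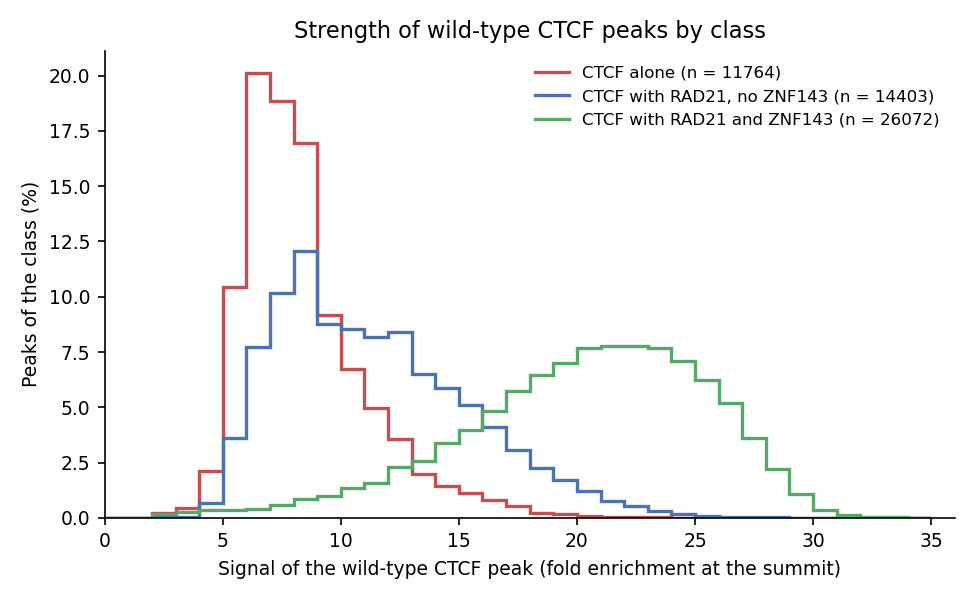
Signal of wild-type CTCF peaks (x axis, fold enrichment at the summit, in bins of 1) as a percentage of the peaks of each class (y axis), for CTCF-alone sites, CTCF peaks with RAD21 only and CTCF peaks with RAD21 and ZNF143. CTCF-alone sites gather around their median of 7.87, while peaks with both partners centre on 20.9.

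The wild-type CTCF list was divided into 10 groups of equal size by signal, group 1 being the weakest. CTCF-alone sites made up 62.7% of group 1 (61.3 to 64.0), 58.2% of group 2, 47.1% of group 3, 31.0% of group 4 and 15.0% of group 5. Their share then fell to 6.04% in group 6 and 1.74% in group 7. Only 13 sites lay in group 8 and 5 in group 9, and the strongest group held 0 of 5299 peaks. Groups 1 to 3 together held 75.6% of all CTCF-alone sites, and the 5 strongest groups held 430 sites, or 3.66%.

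The peaks were also narrow, with a median width of 46 bp (quartiles 33 and 63) against 71 bp with RAD21 only and 121 bp with both partners. Peaks at the list's shortest length, 27 bp, made up 12.5% of CTCF-alone sites (11.9 to 13.1) and 1.39% of the other CTCF peaks (interval to 1.505). From group 2 upwards, stronger peaks were wider at CTCF-alone sites and in both classes with RAD21, and width differed at equal signal too. In group 3, for instance, the median was 48 bp at CTCF-alone sites and 60 bp in both of the classes with RAD21, and in group 5 it was 70 bp against 81 bp with RAD21 only and 94 bp with both. A narrower peak has less room to overlap a partner's peak, so width is not independent of the rule.

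**Figure D2:**
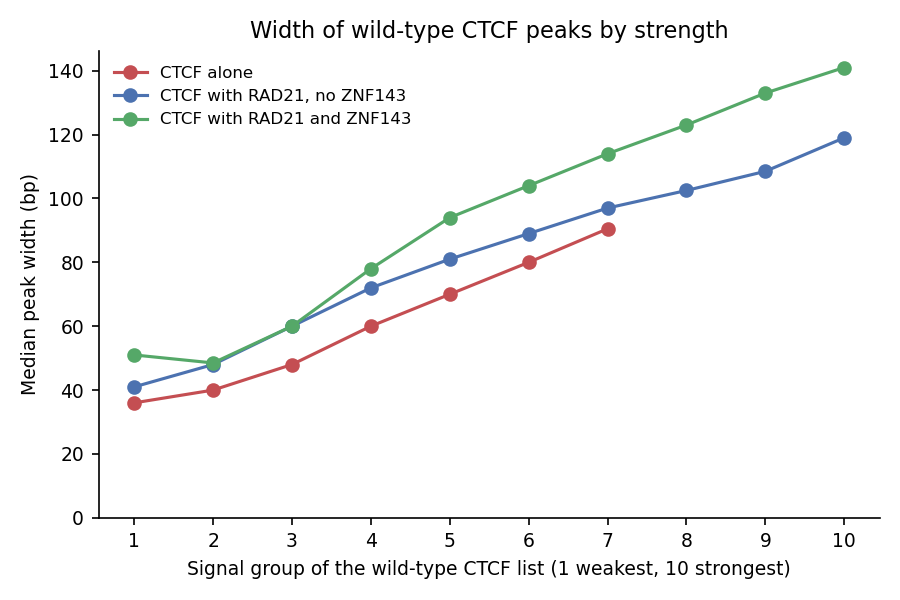
Median width of wild-type CTCF peaks (y axis, bp) in 10 signal groups (x axis, 1 weakest), by class. CTCF-alone sites, shown where a group holds at least 20 of them, are narrower than both classes with RAD21 in groups 1 to 7, with medians of 36 bp in group 1 and 90.5 bp in group 7.

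The strongest CTCF-alone sites reached signals above the median of 20.9 at CTCF peaks with both partners. The 5 of highest signal lay at chr14:77336635-77336747 (signal 23.7, 39 reads at the summit), chr17:43126696-43126791 (23.6, 37 reads), chr19:13200110-13200237 (22.5, 39 reads), chr12:12503367-12503472 (22.4, 36 reads) and chr18:23496052-23496133 (22.3, 29 reads). The nearest RAD21 or ZNF143 peak was 2521, 11486, 4457, 94 and 5545 bp away, in the same order. All 5 were also in the ZNF143KO CTCF list, with summits 0 to 4 bp from those of wild type. The sites on chromosomes 14, 19, 12 and 18 had a RAD21 peak in the knockout, with signals of 11.6, 7.71, 7.51 and 13.9, while the site on chromosome 17 had none. In CTCF-AID cells at 0 h the sites on chromosomes 17 and 12 had a CTCF peak, with signals of 8.59 and 4.91.

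The knockout CTCF library, which the rule did not use, was compared to ask how many CTCF-alone sites recur without ZNF143. Of the sites, 9158 or 77.8% (77.1 to 78.6) had a CTCF peak in ZNF143KO cells and 2606 or 22.2% (21.4 to 22.9) did not. Over all wild-type CTCF peaks 94.0% were kept and 6.02% were absent. CTCF-alone sites thus made up 2606 of the 3192 CTCF peaks of wild type that the knockout list lacked. Windows of the same width placed 5 and 10 kb to either side of the sites met a knockout CTCF peak in 0.625% of cases. The share kept depended on the length of the knockout list: it was 58.9% with that list held to as many peaks as the wild-type list and 0.493% with its 13865 strongest peaks alone.

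Stronger CTCF-alone sites were kept more often. In groups 1 to 5 the share of CTCF-alone sites kept was 62.3%, 72.8%, 84.3%, 93.4% and 98.1%, and in the 5 strongest groups 429 of 430 were kept. CTCF peaks with RAD21 but no ZNF143 were kept in 90.6%, 95.5%, 97.5%, 99.5% and 99.9% of cases in groups 1 to 5. The intervals of these 2 classes did not overlap in the 5 groups. CTCF peaks with ZNF143 but no RAD21, the other class without cohesin, were kept in 50.8% (41.6 to 60.1), 73.0%, 84.9% and 91.7% of cases in groups 1 to 4. Their intervals overlapped those of the CTCF-alone sites in groups 2 to 4 and lay below in group 1, where the interval of peaks with both partners (63.9 to 73.6) just met that of the CTCF-alone sites (60.7 to 64.0). The lower retention was thus not particular to CTCF-alone sites. With the other CTCF peaks weighted to the signal groups of the CTCF-alone sites, 93.1% of them were kept, which put the CTCF-alone sites at -15.2 percentage points (95% interval -16.1 to -14.3). The unweighted difference was -20.7 points (Newcombe interval -21.5 to -20.0). The weighted difference was -10.08 points with a reciprocal overlap of 50%, -8.36 points for the stronger CTCF-alone sites and -2.78 points with the 13865 strongest knockout peaks.

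The sites that were absent from the knockout list were the weaker ones. Their median wild-type signal was 6.76 (quartiles 6.00 and 7.79) with a median width of 35 bp, against 8.11 (6.85 and 10.24) and 50 bp at the sites that were kept. The solved local background was alike, with medians of 0.294 and 0.297 reads. The 2 strongest sites absent from the knockout, chr1:109559653-109559725 (signal 15.0) and chr2:27440949-27441007 (signal 13.8), had 18 reads at the summit and were in none of the other 5 lists either. In all, 2204 CTCF-alone sites, or 18.7% (18.0 to 19.5), were found in none of the 6 knockout and CTCF-AID lists, against 0.238% of the other CTCF peaks. The other peaks all had RAD21 or ZNF143 in wild type, and the 6 lists include RAD21 and ZNF143 lists. This contrast thus follows in part from the rule, and it was not matched for signal, which was higher at the other peaks.

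At the kept CTCF-alone sites, the distance between the wild-type and knockout CTCF summits was measured. A site counted as kept only where the peaks overlapped, so this distance is short in part by construction. The overlapping peaks had median widths of 50 bp in wild type and 65 bp in the knockout. The knockout CTCF summit lay a median of 9 bp from the wild-type summit (quartiles 4 and 16), against 8 bp at sites with RAD21 only and 7 bp at sites with both partners. Within the knockout CTCF list these peaks remained in the lower part, at a median percentile of 28.6 by signal (quartiles 16.7 and 40.6). Peaks at sites with RAD21 only stood at a median percentile of 49.7 and those at sites with both at 77.4. In the knockout list, 11.7% of the peaks at CTCF-alone sites belonged to the stronger 50% of the list.

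Cohesin was read from the knockout RAD21 library, which used the same antibody as the wild-type library of the rule. A RAD21 peak was present in ZNF143KO cells at 4155 CTCF-alone sites, or 35.3% (34.5 to 36.2). Over all wild-type CTCF peaks the share was 83.4%, and in the windows 5 and 10 kb away it was 0.578%. The other CTCF peaks were mostly chosen for a wild-type RAD21 peak, so their share of 97.1% follows largely from the rule. Among the 743 CTCF peaks with ZNF143 but no RAD21 in wild type, 57.9% (54.2 to 61.5) had a knockout RAD21 peak, more than among the CTCF-alone sites. The knockout RAD21 library was deeper than the wild-type library, and when its list was held to the length of the wild-type RAD21 list, 22.4% of the CTCF-alone sites had a peak. With a reciprocal overlap of 50% the share was 22.96%.

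**Figure D3:**
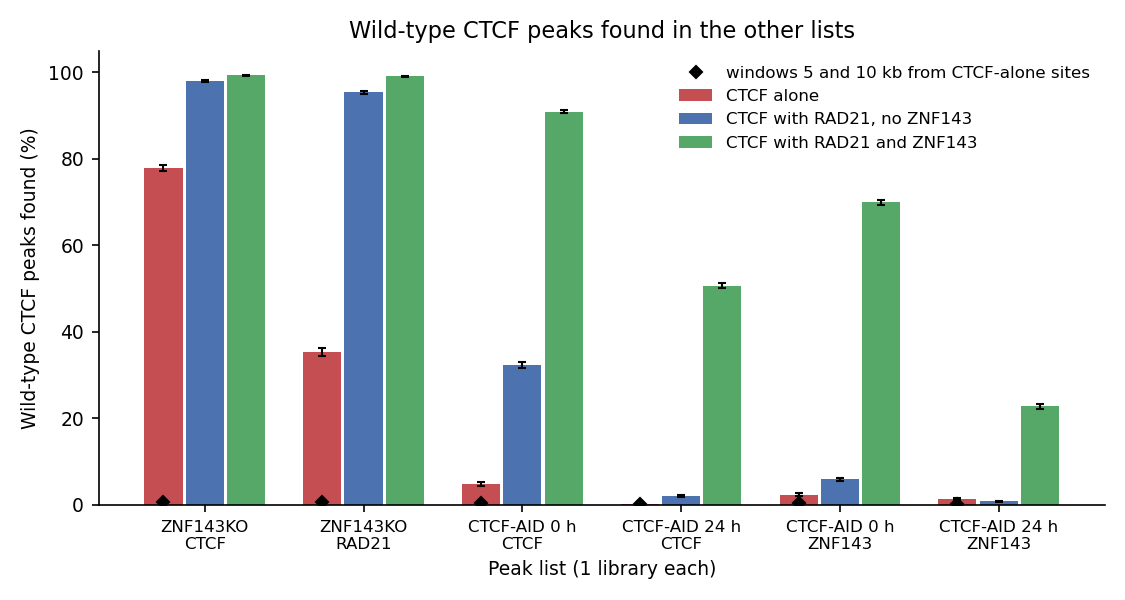
Percentage of wild-type CTCF peaks (y axis) that overlap a peak of each knockout and CTCF-AID list (x axis, 1 library each), with exact 95% binomial intervals, for CTCF-alone sites, CTCF peaks with RAD21 only and CTCF peaks with both partners. Diamonds give windows 5 and 10 kb from the CTCF-alone sites. CTCF-alone sites reach 77.8% in knockout CTCF and 35.3% in knockout RAD21 and stay under 5% in the 4 CTCF-AID lists.

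Knockout cohesin was more frequent at stronger CTCF-alone sites. The share of CTCF-alone sites with a knockout RAD21 peak was 25.7% in group 1 (24.2 to 27.2), 29.4% in group 2, 36.8% in group 3, 46.0% in group 4, 54.2% in group 5, 66.9% in group 6 and 71.7% in group 7 (61.4 to 80.6, 66 of 92 sites). The median signal of sites with a knockout RAD21 peak was 8.57 and that of sites without was 7.39. The distance to the nearest wild-type RAD21 peak was alike in the 2 sets, with medians of 13627 and 13744 bp.

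Knockout RAD21 peaks at CTCF-alone sites were themselves weak and narrow. They stood at a median percentile of 18.3 by signal within the knockout RAD21 list (quartiles 9.88 and 28.98), with a median width of 49 bp and 14 reads at the summit. At CTCF peaks that already had RAD21 only in wild type, the knockout RAD21 peaks stood at a median percentile of 48.4, with a width of 102 bp. Only 2.65% of the knockout RAD21 peaks at CTCF-alone sites were in the stronger 50% of the list.

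The sites closest to a wild-type RAD21 peak differed from the rest. Of the 219 CTCF-alone sites less than 100 bp from a wild-type RAD21 peak, 67.6% (61.0 to 73.7) had a knockout RAD21 peak. From 100 bp outwards the share was nearly level, between 32.7% at 100 to 500 bp and 38.0% beyond 50000 bp. Among all knockout RAD21 peaks at CTCF-alone sites, 115 of 4157 also overlapped a wild-type RAD21 peak.

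**Figure D4:**
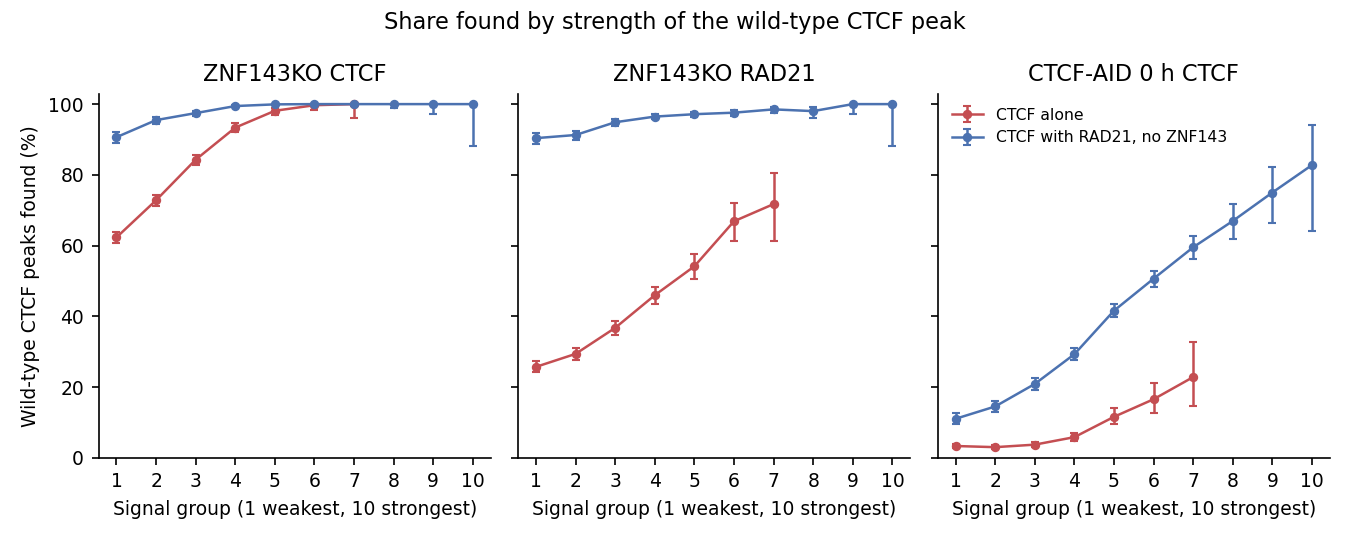
Percentage of CTCF-alone sites and of CTCF peaks with RAD21 only (y axis, exact 95% binomial intervals) found in knockout CTCF, knockout RAD21 and CTCF-AID 0 h CTCF, by signal group of the wild-type CTCF peak (x axis), for groups with at least 20 peaks of the class. The share of CTCF-alone sites rises from 62.3% to 100% in knockout CTCF and from 25.7% to 71.7% in knockout RAD21 between groups 1 and 7.

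The knockout lists together divided the CTCF-alone sites into 4 sets. CTCF without RAD21 was the most frequent state in the knockout as well, at 5280 sites or 44.9% (44.0 to 45.8). Both proteins had a knockout peak at 3878 sites (33.0%), neither at 2329 (19.8%) and RAD21 without CTCF at 277 (2.35%). Among the sites with knockout CTCF, 42.3% (41.3 to 43.4) had knockout RAD21, compared with 10.6% (9.47 to 11.9) among those without. For all wild-type CTCF peaks kept in the knockout the share with knockout RAD21 was 87.6%.

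These sets differed in wild-type CTCF strength. The median signal was 8.78 at sites with both proteins in the knockout, 8.03 at sites with knockout CTCF only, 7.09 at sites with knockout RAD21 only and 6.71 at sites with neither. The median widths were 55, 47, 40 and 35 bp in that order. Among the 430 sites of the 5 strongest groups, 136 or 31.6% (27.3 to 36.3) kept CTCF in the knockout and had no RAD21 peak in either genotype.

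At sites with both proteins in the knockout, the distance between the 2 summits was measured where the peaks overlapped. It is therefore short in part by construction. The knockout CTCF and RAD21 summits were a median of 11 bp apart at 3867 CTCF-alone sites where the knockout peaks themselves overlapped (quartiles 4 and 20). The median was 12 bp (5 and 23) at sites with RAD21 only and 13 bp (5 and 28) at sites with both partners. The quartiles of the 3 classes overlapped broadly.

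The same overlaps were read from the knockout side. Of 11897 knockout RAD21 peaks that overlapped no wild-type RAD21 peak, 4042 or 34.0% (33.1 to 34.8) lay at a CTCF-alone site, and 4514 lay at any wild-type CTCF peak. Over all 56861 knockout RAD21 peaks, 4157 lay at a CTCF-alone site. CTCF peaks without RAD21 in wild type comprised 11764 CTCF-alone sites and 743 with ZNF143. The large part of the 4514 that lay at CTCF-alone sites thus follows mostly from the rule. The knockout CTCF list contained 13747 peaks without knockout RAD21. Of these, 5239 or 38.1% lay at a wild-type CTCF-alone site, and 7590 or 55.2% at no wild-type CTCF peak at all. The same shares over all 63420 knockout CTCF peaks are not given here. Whether either share is particular to peaks without RAD21 therefore cannot be read from these counts.

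The CTCF-AID line at 0 h has, by its labels, no ZNF143 knockout and no auxin, but its CTCF carries the degron. It shared few CTCF-alone sites. A CTCF peak at 0 h was found at 566 sites, or 4.81% (4.43 to 5.21), against 55.1% of all wild-type CTCF peaks. The windows 5 and 10 kb away gave 0.468%. The CTCF-AID 0 h list is also shorter, with 30374 CTCF peaks, although its library had the higher background density. It differs from the wild-type list in line, degron tag on CTCF and library at once.

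Stronger sites were found at 0 h more often. The share found at 0 h was 3.34% in group 1, 3.02% in group 2, 3.73% in group 3, 5.85% in group 4, 11.6% in group 5, 16.6% in group 6 and 22.8% in group 7. CTCF peaks with RAD21 only had shares of 11.04% in group 1 and 59.5% in group 7. With the other CTCF peaks weighted to the same signal groups, 29.4% were found at 0 h, a difference of -24.6 points (-25.5 to -23.7) for the CTCF-alone sites, which was -1.56 points with the 0 h list held to its 13865 strongest peaks. Weighted in the same way, peaks with RAD21 only were found in 20.2% of cases.

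The 566 sites found at 0 h stood apart in several measures. They had a median signal of 9.41 against 7.81 at the sites not found, and a median local background of 0.486 reads against 0.292. Their median distance to a wild-type RAD21 peak was 4428 bp against 14148 bp. Less than 500 bp from a wild-type RAD21 peak, 142 of 760 sites were found. The 0 h peaks that overlapped CTCF-alone sites had a median width of 70.5 bp, against 169 bp for the 0 h list as a whole. Without the CTCF-alone sites of high local background (over 2 times the list's most frequent value), 2.81% were found at 0 h, and with the 0 h list held to its 13865 strongest peaks the share was 0.0850%. Of the 566 sites, 502 were in the knockout CTCF list (88.7%) and 303 in the knockout RAD21 list (53.5%, against 34.4% of the sites not found at 0 h).

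After 24 h of auxin almost no CTCF-alone site had a CTCF peak. The 24 h list held 21 of the sites, or 0.179% (0.111 to 0.273), against 25.6% of all wild-type CTCF peaks. Peaks with RAD21 only were at 1.99%, or 0.781% when weighted to the signal groups of the CTCF-alone sites. A low share was thus not particular to CTCF-alone sites. The windows 5 and 10 kb away gave 0.119%. The lower bound of the CTCF-alone interval lies below that value, so the CTCF-alone share was not distinguishable from the neighbourhood at this number of peaks. The CTCF-alone share was 0.102% with a reciprocal overlap of 50% and 0.105% without sites of high local background. At the stronger sites it was 0.289% (0.168 to 0.462). That interval lies above the value of the windows, which were placed around all CTCF-alone sites and not the stronger ones alone. Of the 566 sites present at 0 h, 15 were present at 24 h, or 2.65% (1.49 to 4.33). Among all wild-type CTCF peaks present at 0 h that share was 46.1%, and among peaks with RAD21 only it was 6.05% (5.38 to 6.77). The other 6 of the 21 sites had no CTCF peak at 0 h. The 24 h library was also the shallowest of the 9 by background density.

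The 2 strongest CTCF-alone sites with CTCF at 24 h differed in their surroundings. The site at chr8:11141958-11142074 had a wild-type signal of 20.2 and lay 12 bp from a wild-type ZNF143 peak. Its CTCF signal was 17.0 in the knockout, 10.9 at 0 h and 6.84 at 24 h, and the CTCF-AID ZNF143 summits were 142 and 146 bp away at 0 h and 24 h. The site at chr14:32954252-32954309 (wild-type signal 20.1) lay 15386 bp from any RAD21 or ZNF143 peak in wild type. It had a peak in all 6 other lists, with a RAD21 signal of 15.2 in the knockout and ZNF143 signals of 7.04 at 0 h and 6.66 at 24 h, with both ZNF143 summits on the same base as the wild-type CTCF summit.

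ZNF143 peaks were rare at CTCF-alone sites in the CTCF-AID line. At 0 h a ZNF143 peak was found at 283 CTCF-alone sites, or 2.41% (2.14 to 2.70), against 37.3% of all wild-type CTCF peaks and 0.402% of the windows 5 and 10 kb away. At 24 h it was found at 154 sites, or 1.31% (1.11 to 1.53), against 12.2% of all wild-type CTCF peaks and 0.244% of the windows. CTCF-alone sites were chosen for lacking a wild-type ZNF143 peak, which 26072 CTCF peaks with both partners and 743 with ZNF143 only had. The gap to the shares of all wild-type CTCF peaks thus follows largely from the rule. CTCF peaks with RAD21 only had 5.89% at 0 h and 0.840% at 24 h. Weighted to the signal groups of the CTCF-alone sites, these shares were 3.35% and 1.30%. The CTCF-alone sites differed from them by -0.947 points (-1.395 to -0.498) at 0 h and 0.007 points (-0.328 to 0.342) at 24 h. The low shares were thus not particular to CTCF-alone sites. Both times were positive at 106 sites, which is 37.5% (31.8 to 43.4) of the 283.

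The sites with ZNF143 in the CTCF-AID line were close to wild-type ZNF143 peaks and had a high local background. Their median distance to a wild-type ZNF143 peak was 1724 bp for the 0 h sites and 656 bp for the 24 h sites, against 19557 and 19432 bp at the sites without. The wild-type CTCF local background was over 2 times the most frequent value at 64.3% of the 0 h sites (58.4 to 69.9) and 74.7% of the 24 h sites (67.1 to 81.3), compared with 19.3% of all CTCF-alone sites. Without the sites of high background the shares were 1.06% at 0 h and 0.411% at 24 h. A reciprocal overlap of 50% gave 1.44% and 0.842%, and at 24 h the stronger sites gave 0.799% and sites more than 500 bp from wild-type RAD21 and ZNF143 peaks 0.700%. With the 0 h list held to its 16392 strongest peaks the 0 h share was 0.204%. CTCF was also seen at 0 h at 130 of the 283 sites (45.9%), against 3.798% of the sites without ZNF143. The 2 strongest sites with ZNF143 at 0 h were the one on chromosome 12 named above (ZNF143 signal 7.22) and chr15:95069440-95069531 (wild-type CTCF signal 21.5, ZNF143 signal 6.34).

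The spacing of CTCF-alone sites from other CTCF peaks was measured next. The nearest other CTCF peak lay a median of 12774 bp away, against 15169 bp for peaks with RAD21 only and 11712 bp for peaks with both. Another CTCF peak was found within 1000 bp of 9.90% of the CTCF-alone sites (9.37 to 10.5), 6.77% of peaks with RAD21 only and 8.76% of peaks with both.

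The share of CTCF peaks that were CTCF-alone differed between chromosomes. It was lowest on chromosome X, at 15.2% (13.5 to 17.0, 260 of 1715 peaks), and on chromosome 4, at 16.7% (15.1 to 18.4, 337 of 2019). It was highest on chromosome 3, at 27.3% (25.9 to 28.8), and chromosome 16, at 27.1% (25.2 to 29.1). Weaker peaks are CTCF-alone more often, and chromosomes 4 and X had the lowest median CTCF signals of all peaks, 12.2 and 13.0. From their signal groups alone, 26.3% of the peaks of chromosome 4 and 24.1% of those of chromosome X would be CTCF-alone, and the observed shares differed from these by -9.60 and -8.98 points. On chromosomes 3 and 16 the signal groups gave 22.9% and 23.1%, and the observed shares differed by 4.38 and 4.04 points. The copy number of chromosomes in these cells was not measured here, and its part in these differences was not tested.

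**Figure D5:**
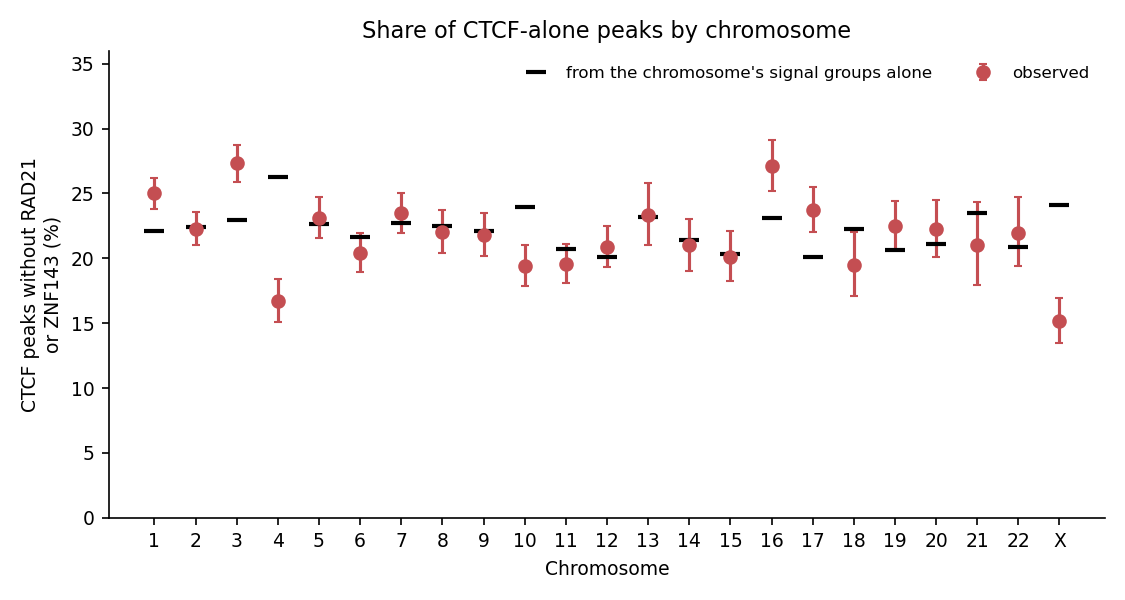
Percentage of wild-type CTCF peaks that are CTCF-alone (y axis) on each chromosome (x axis), with exact 95% binomial intervals. Black dashes give the percentage that the chromosome's mix of signal groups would give. Chromosomes 4 and X lie below their dashes, at 16.7% and 15.2%, and chromosomes 3 and 16 above, at 27.3% and 27.1%.

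Retention of CTCF-alone sites in the knockout also varied by chromosome. The share kept in knockout CTCF ran from 68.9% on chromosome 9 and 69.6% on chromosome 8 to 85.2% on chromosome 13. The share with knockout RAD21 ran in a like way, from 26.9% on chromosome 9 and 28.8% on chromosome 8 to 43.6% on chromosome 13. The median wild-type signal of the CTCF-alone sites on these 3 chromosomes was 7.74, 7.82 and 8.07.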

How the data were processed

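Per the submitters' processing notes, cutadapt 2.10, Bowtie2 2.3.5.1, SAMtools 1.12 and MACS2 2.2.7.1 were used with build hg19 (GRCh37); settings, filters and pooling are not given in the sources used here. The authors deposited 1 narrow-peak list per library, 9 in all. The deposited signal is a ratio, the fold enrichment at the summit. The other deposited values are −log10 p, −log10 q and a score that is, up to rounding, the whole part of 10 times −log10 q. No peak had a −log10 q below 5 in the knockout lists, whereas the others began near 3.

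The CTCF-alone sites, the lists and the comparisons were chosen with earlier results of these data known. Peaks that overlapped by 1 bp or more counted as shared. Intervals of shares are exact 95% binomial (Clopper-Pearson) ones, and differences carry Newcombe intervals or, when weighted over the 10 signal groups, normal ones. Summit count and local background were solved from ratio and −log10 p under a Poisson model with 1 added to both. Whole counts gave −log10 p within 0.001 in every list. Background density is the most frequent background divided by the shortest peak length. Peaks were named by a fixed rule: the 5 strongest sites, the 2 strongest absent from knockout CTCF and at knockout RAD21, 24 h CTCF or 0 h ZNF143, and the 2 at either edge of the rule. Ties were broken by −log10 p. DNA sequence, motifs and gene annotation at the sites were not analysed here. The code ran in Python 3.11.15 with scipy 1.17.1, pandas 2.3.3, matplotlib 3.10.9 and numpy 2.4.6, and was tested on simulated data.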

Additional observations from a re-analysis of the deposited data

Results flagged for a closer look

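CTCF peaks without RAD21 or ZNF143 also lay outside the chromosomes compared. In each case they exceeded a fixed floor of 3 peaks, which is not a test of how many would be expected. Chromosome Y held 46 among its 252 CTCF peaks, of which 22 were in the knockout CTCF list. HEC-1-B is a uterine line, so the origin of reads placed on chromosome Y is in doubt and was not tested. The unplaced and mitochondrial sequences held 98 among 349, of which 44 were in the knockout CTCF list. The origin of those reads was not tested either. None of these peaks is counted among the CTCF-alone sites above.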

How the results depend on the processing

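Of 89 alternative values of 17 results, 38 stayed within the 95% interval of the reported value (for the number of sites, within 1.5 times), 51 moved and 0 changed sign. Only the weighted differences could change sign, as shares, counts, medians and distances cannot be negative. Groups of −log10 q or of width in place of signal, and a knockout CTCF list at the wild-type length, were chosen after seeing the data. At 59.1% of CTCF-alone sites the summit held 10 reads or fewer. Except where a construction is named, the cause was not tested. "Weighted difference" is the share of CTCF-alone sites minus that of other CTCF peaks of the same signal groups. For knockout RAD21 it follows largely from the rule, as most other CTCF peaks were chosen for a wild-type RAD21 peak. No paired analysis was possible because each group has 1 library. The planned motif alternatives were not run.

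A reciprocal overlap of 50%, by construction stricter, put 61.99% of the sites at knockout CTCF, 22.96% at knockout RAD21, 3.34% at 0 h CTCF, 0.102% at 24 h CTCF, 1.44% at 0 h ZNF143 and 0.842% at 24 h ZNF143. The weighted differences were -10.08 points for knockout CTCF, -33.3 for knockout RAD21 and -18.6 for 0 h CTCF. When that overlap was needed to remove a CTCF peak, 32.1% of CTCF peaks were CTCF-alone, with a median signal of 8.11, width of 51 bp and −log10 q of 9.90. Summits within 100 bp moved none of the 9 values computed with them.

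At a −log10 q of at least 5 in every list, 23.4% of CTCF peaks were CTCF-alone, with a median signal of 8.11, width of 48 bp and −log10 q of 9.90. Knockout CTCF held 80.7% of them, knockout RAD21 40.3% and 0 h CTCF 5.64%, with weighted differences of -13.3, -51.05 and -26.4 points.

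The stronger 50% of the sites were kept in knockout CTCF in 89.4% of cases and found at knockout RAD21 in 43.4%, 0 h CTCF in 6.41%, 24 h CTCF in 0.289% and 24 h ZNF143 in 0.799%. The weighted differences were -8.36, -51.07 and -29.98 points for knockout CTCF, knockout RAD21 and 0 h CTCF.

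With no RAD21 or ZNF143 peak within 500 bp, 20.2% of CTCF peaks were CTCF-alone, of which 3.65% were in 0 h CTCF (weighted difference -25.8 points), 1.62% in 0 h ZNF143 and 0.700% in 24 h ZNF143. Without sites of high local background the shares were 2.81% for 0 h CTCF (weighted difference -26.2 points), 0.105% for 24 h CTCF, 1.06% for 0 h ZNF143 and 0.411% for 24 h ZNF143.

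With each list at the length of its antibody's shortest list, which by construction removes weak peaks, the shares were 0.493% for knockout CTCF (weighted difference -2.78 points), 22.4% for knockout RAD21, 0.0850% for 0 h CTCF (-1.56 points) and 0.204% for 0 h ZNF143. With the knockout CTCF list at the wild-type length the share was 58.9% and the weighted difference -20.3 points. For 0 h CTCF the weighted difference was -21.0 points with groups of −log10 q and -27.3 with groups of width.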
